A study of Rattus norvegicus with 14 samples.

Results

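The potassium channel genes are taken here as all genes whose single symbol in the array annotation starts with Kcn, and 87 of the 18166 genes measured met that rule. Each gene was read from 1 transcript cluster, the array's unit for a gene; Kcnk6 alone had 2 clusters, and the one with the higher mean over all arrays was used. Expression was measured in whole epididymides of Sprague-Dawley rats on Affymetrix RatGene 2.0 ST arrays, with 1 array per pool of organs: the 7-day group had 3 pools, the 18-day group 4, the 28-day group 4 and the 60-day group 3. No treatment, genotype or transgene separates the groups, which differ by age; the younger pups were kept with their nursing mothers, and the day 28 and day 60 rats were fed freely. The labels describe pools of whole organs and do not say how many animals made a pool or that the pools came from separate litters, so the p-values measure the spread between these pools.

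Potassium channels let potassium leave or enter cells along its gradient and so set the resting membrane potential. In secretory epithelia they also recycle the potassium brought in by the sodium pump and keep up the voltage that drives chloride and bicarbonate across the cell, and in smooth muscle they damp contraction. The epididymis carries sperm through a duct whose fluid is rich in potassium, surrounded by contractile muscle, and the duct epithelium differentiates in the weeks after birth. The Kcn symbols cover the leak channels (Kcnk), the inward rectifiers (Kcnj), the voltage-gated channels with their electrically silent partners, the channels gated by calcium, sodium or pH, and auxiliary subunits (Kcne, Kcnip, Kcnmb, Kcnab) that carry no current of their own but change how the pores gate.

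The values are log2 signals, so a difference of 1 is a 2-fold difference. Olfactory and vomeronasal receptor genes, 1344 of them, gauged the background: the 95th percentile of their means was 4.92, and their median was 2.99. Over the 14 arrays 65 of the 87 Kcn genes had a mean above that level and 22 did not, which is 74.7% above, beside 72.9% of all other genes. Kcnh1 (4.9205) lay just above the level and Kcnj4 (4.8886) just below it. In total 46 genes were above it in every array and 13 in none. Signals of different probes do not compare as amounts of RNA, so the order of the means given next is an order of signals. The 10 highest mean signals belonged to Kcnk1 (11.17), Kcnj15 (9.67), Kcne3 (9.55), Kcnmb1 (9.42), Kcnip3 (9.06), Kcne4 (8.46), Kcnk6 (8.24), Kcnip1 (8.11), Kcnq1 (8.05) and Kcnd3 (7.81). Several of these are auxiliary subunits. By family 12 of 13 leak channels, 11 of 15 inward rectifiers, 24 of 35 voltage-gated genes, 5 of 7 calcium-, sodium- or pH-gated genes and 13 of 16 auxiliary subunits were above background, and the regulator Kcnrg was not.

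**Figure D1:**
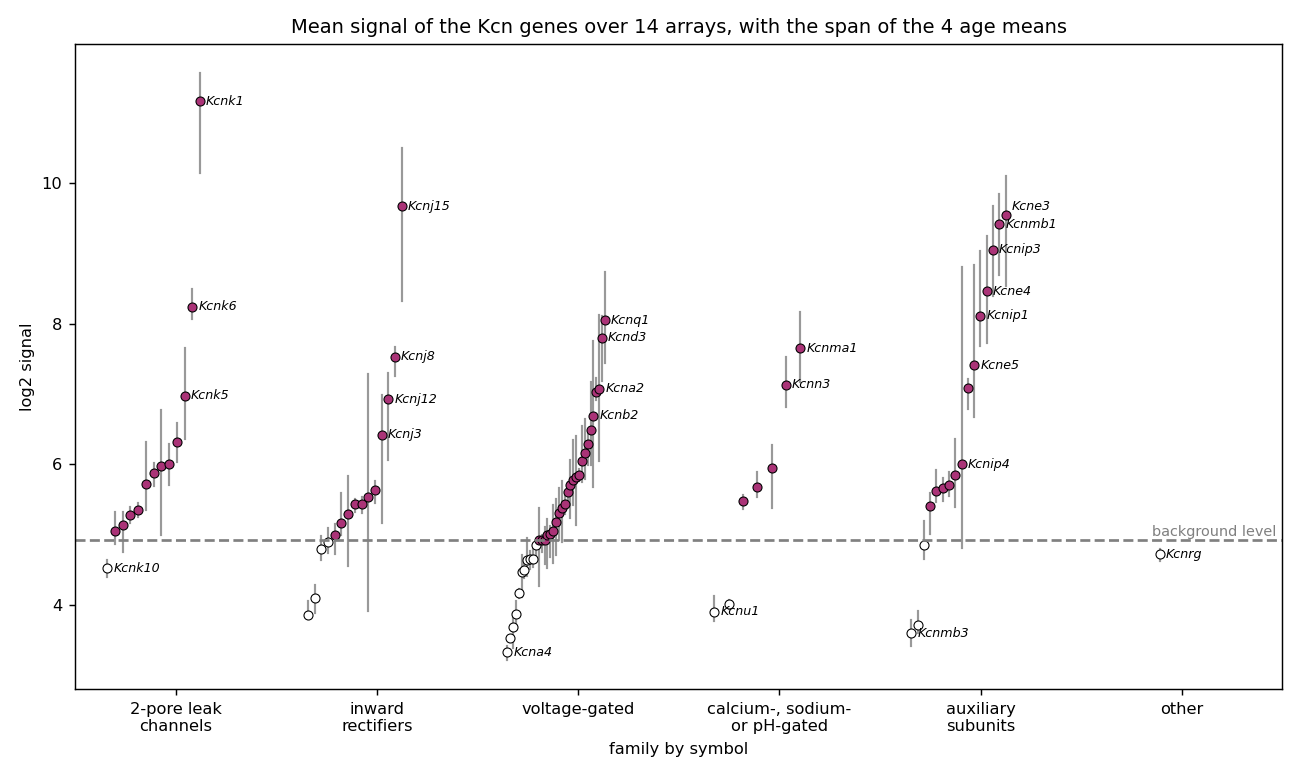
Mean log2 signal over 14 arrays of each of the 87 Kcn genes (y axis), grouped by family (x axis). Filled points are the 65 genes above the background level of 4.92 (dashed line), open points the 22 others, and each grey bar spans the lowest to the highest of the 4 age means; the longest bars belong to Kcnip4 and Kcnj16.

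Array medians lay between 5.21 and 5.42 and pools of 1 age correlated at 0.989 to 0.995 across genes. All 11 measured marker genes of the epididymal epithelium were higher at day 60 than at day 7, although Cst11 among them stayed under the background level in its mean. Other cell types were present: all 7 smooth muscle markers measured were above background, and T lymphocyte markers were higher at day 18 than at day 7 in 7 of 7 cases. All 5 adipocyte markers were higher at day 60 than at day 7. The log2 of their summed level was 7.49 to 8.03 at day 7 and 10.40 to 10.59 at day 60. In bulk tissue, fewer cells of a type and less RNA per cell cannot be told apart. Day 28 replicate 2 lay apart from the other 3 pools of its age on the third principal component, at -25.2 against -15.9 to -14.2. Without that pool 14 Kcn genes were higher and 11 lower at day 28 than at day 18, and 7 higher and 13 lower at day 60 than at day 28; the counts with it follow.

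The comparison of day 18 with day 7 asks what changes between the first week and the third. At day 18 there were 21 Kcn genes higher and 16 lower than at day 7 (adjusted p under 0.05, limma), where 17.4% of all genes were higher and 20.7% lower; the Kcn genes were called in 42.5% of cases in either direction and all genes in 38.1%. The largest rises were those of Kcne3 (1.57), Kcnj3 (1.48), Kcnj15 (1.41), Kcnq1 (1.29), Kcnk1 (1.16) and Kcnk5 (1.0), and the falls of at least 2-fold were those of Kcnip4 (-3.04), Kcne5 (-1.53), Kcnip1 (-1.35), Kcnip3 (-1.27) and Kcnmb1 (-1.02), all auxiliary subunits. In all 6 Kcn genes were at least 2-fold higher and 5 at least 2-fold lower, beside 2.82% and 3.07% of all genes. The median size of the difference without regard to sign was 0.27 over the Kcn genes and 0.22 over all genes. Of the 21 and 16 calls, 15 and 12 were made under every alternative setting and without each pool.

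Fewer genes were called at the next step. At day 28 there were 17 Kcn genes higher and 12 lower than at day 18, beside 10.5% and 14.3% of all genes, that is 33.3% of the Kcn genes and 24.7% of all genes in either direction. Kcnk2 rose by at least 2-fold, and Kcnj16 and Kcna2 fell by as much, beside 1.56% and 0.606% of all genes. The median size was 0.17 over the Kcn genes and 0.16 over all genes, and 8 of the 17 and 11 of the 12 calls were made under every alternative.

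At day 60 there were 9 Kcn genes higher and 13 lower than at day 28, beside 13.8% and 11.2% of all genes, or 25.3% of the Kcn genes and 25.0% of all genes in either direction. No Kcn gene differed by at least 2-fold in either direction, beside 1.58% of all genes higher and 0.374% lower. Kcnb2 fell by 0.71 and Kcnip3 rose by 0.66, and 6 of the 9 and 10 of the 13 calls were made under every alternative.

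Over the whole span 27 Kcn genes were higher at day 60 than at day 7 and 15 lower, beside 21.7% and 27.6% of all genes, or 48.3% of the Kcn genes and 49.2% of all genes. At least 2-fold, 8 were higher and 7 lower, beside 7.05% and 6.28%. Kcnj15, Kcnj3 and Kcnk2 were the highest risers, at 2.19, 1.83 and 1.75, and Kcnip4, Kcnb2 and Kcna2 were the lowest of those measured at both ages, at -3.71, -2.09 and -2.08. Kcnj16, under background in all day 60 pools, was at least 5.17-fold lower. In the joint test of all ages 55 of 87 Kcn genes differed, beside 60.4% of all genes. So as a group the Kcn genes were called about as often as other genes from day 28 to day 60 and over the whole span, and what follows describes which of them moved. The whole-span calls made under every alternative were 20 of the 27 and 11 of the 15. These comparisons share pools, so each gene's differences are given side by side.

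**Figure D2:**
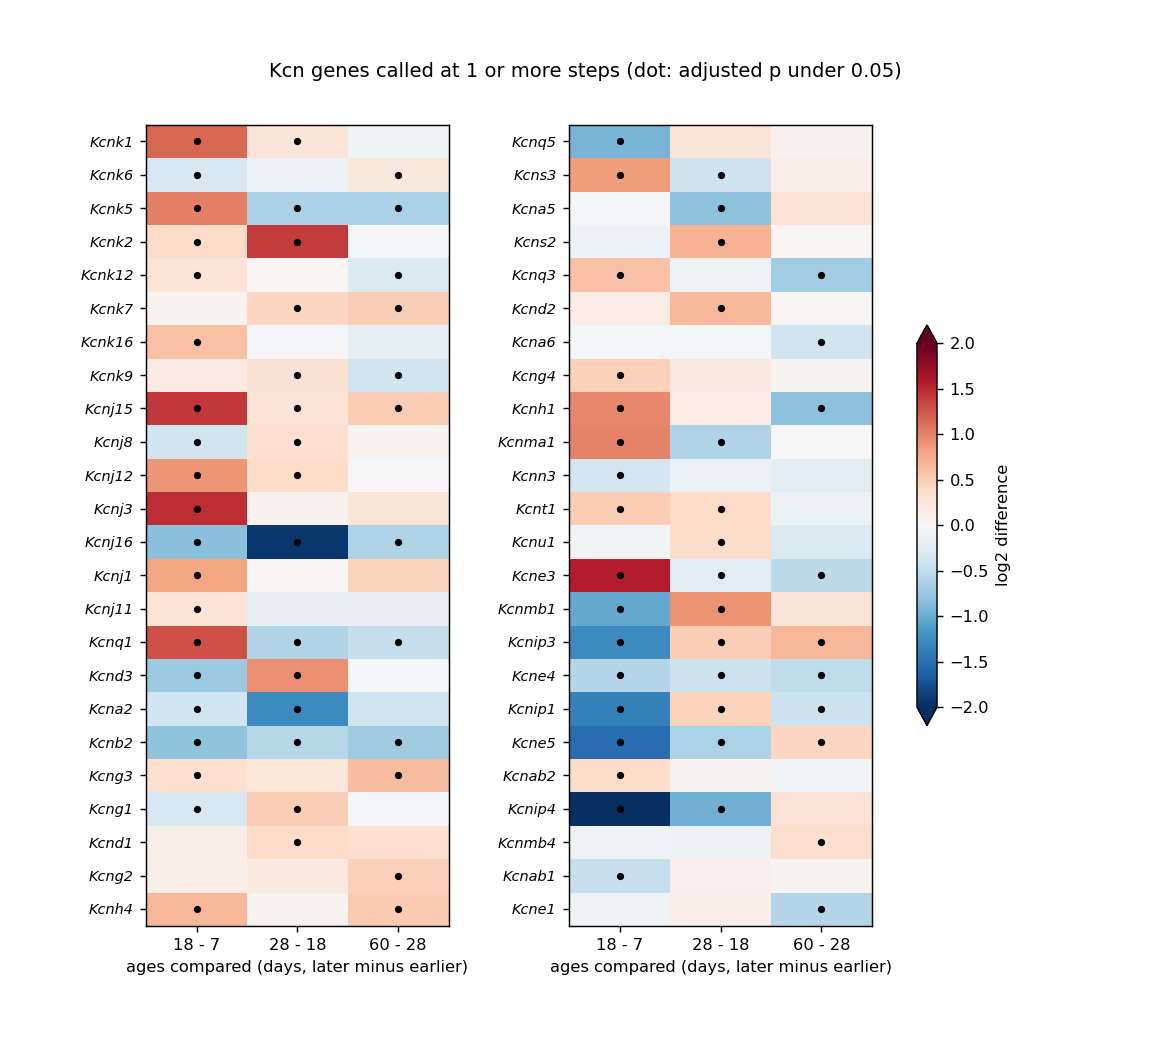
Log2 difference (colour, later age minus earlier age) for the 48 Kcn genes called at 1 or more of the 3 neighbouring steps; rows are genes, ordered by family and mean signal, and columns are day 18 against 7, day 28 against 18 and day 60 against 28. Black dots mark an adjusted p under 0.05 and colours stop at a difference of 2 in either direction; Kcnip4 is darkest blue at the first step and Kcnj16 at the second.

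Among the leak channels, which conduct at rest and are formed by subunits with a pair of pore loops each, 5 rose and 1 fell at day 18 against day 7, 4 rose and 1 fell at day 28 against day 18, and 2 rose and 3 fell at day 60 against day 28. That is 46.2%, 38.5% and 38.5% of the leak channels in either direction, beside 38.1%, 24.7% and 25.0% of all genes. Not all of these calls were made under every alternative. Kcnk2, Kcnk12 and Kcnk16 lost theirs at day 18 under some, as did Kcnk1, Kcnk7 and Kcnk9 at day 28. At day 60 so did Kcnk6, Kcnk7 and Kcnk12. Kcnk1, a weakly rectifying leak channel found in many epithelia, read 10.23, 9.94 and 10.28 in the day 7 pools, 11.37, 11.25, 11.40 and 11.21 at day 18, 11.61, 11.55, 11.58 and 11.54 at day 28 and 11.43, 11.48 and 11.54 at day 60. Every pool from day 18 on was above every day 7 pool, by 1.16 ± 0.09 at day 18 (SE, adjusted p = 8.1e-08) and by 1.33 ± 0.09 at day 60. The further 0.26 ± 0.08 at day 28 against day 18 passed the test (adjusted p = 0.0277), but not without day 18 replicate 2 or 4 (0.0753 and 0.0811) or day 28 replicate 1 or 3 (0.0617 and 0.0577), nor with quantile normalization (0.0946).

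Kcnk5, an alkaline-activated leak channel that takes part in bicarbonate handling in the kidney, had its highest signal at day 18. It read 6.69, 6.69 and 6.58 at day 7, 7.81, 7.36, 7.90 and 7.54 at day 18, 7.11, 6.94, 7.0 and 6.97 at day 28 and 6.38, 6.40 and 6.29 at day 60. The day 18 pools overlapped with no other age, with a rise of 1.0 ± 0.11 (adjusted p = 4.18e-06) followed by falls of 0.65 ± 0.10 and 0.65 ± 0.11 (adjusted p = 0.000278 and 0.000608).

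Kcnk2, a leak channel opened by membrane stretch and fatty acids and known from smooth muscle and neurons, rose later. It read 4.55, 5.22 and 5.19 at day 7, 5.48, 5.46, 5.33 and 5.20 at day 18, 6.67, 6.95, 6.76 and 6.70 at day 28 and 6.71, 6.84 and 6.67 at day 60. The pools fell into a low pair of ages and a high pair with no overlap, 1.40 ± 0.13 apart at day 28 against day 18 (adjusted p = 1.9e-06). At the same step 6 of the 7 smooth muscle markers measured also rose: the log2 of their summed level ran from 13.03 to 13.32 in the day 28 pools, against 12.38 to 12.72 in the day 18 pools. In the day 7 pools, where Kcnk2 read 4.55 to 5.22, the summed level ran from 12.80 to 13.18. The part of these markers in the result was not tested.

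Kcnk6, found in lysosomes and vessel walls, read 8.10, 8.21, 8.20 and 8.21 at day 18, against 8.43, 8.58 and 8.50 at day 7. That is 0.32 ± 0.08 lower (adjusted p = 0.00391), with no overlap. At day 60 it was 0.22 above day 28 and 0.21 below day 7 (0.0472 and 0.0482), calls that ended under 17 and 15 of 21 alternatives, most of them the omission of 1 pool of any age (adjusted p up to 0.28 and 0.205). Kcnk7, for which no current of its own is known, was 0.97 ± 0.14 higher at day 60 than at day 7 (adjusted p = 3.6e-05). The acid-sensitive Kcnk3 and the mechanosensitive Kcnk4 were called at no step, with means of 6.58 and 6.10 at day 60, against 6.04 and 5.70 at day 7; Kcnk3 was called over the whole span (0.55), a call that ended without day 7 replicate 1 or 3 (adjusted p = 0.0505 and 0.105) or day 60 replicate 1 or 3 (0.0605 and 0.0613). Kcnk10 was the only leak channel in the annotation whose mean was not above background.

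The inward rectifiers pass current more easily into the cell than out of it near rest. Of 15, 5 rose and 2 fell at day 18 against day 7, 3 rose and 1 fell at day 28 against day 18, and 1 rose and 1 fell at day 60 against day 28. That is 46.7%, 26.7% and 13.3% of the inward rectifiers, beside 38.1%, 24.7% and 25.0% of all genes. Kcnj15 and Kcnj16 form channels of polarised epithelia, and Kcnj16 is known to assemble with Kcnj15 or Kcnj10 because it conducts poorly alone. These partners ran in opposite directions. Kcnj15 read 8.19, 8.28 and 8.50 at day 7, 9.60, 9.76, 9.78 and 9.80 at day 18, 10.06, 9.92, 9.95 and 10.06 at day 28 and 10.45, 10.55 and 10.53 at day 60. It was the only one of the 87 genes called higher at every step, as were 1.77% of all genes, and no 2 ages overlapped. Its differences were 1.41 ± 0.09 at day 18 (adjusted p = 8.97e-09), 0.27 ± 0.08 at day 28 (0.0229) and 0.51 ± 0.09 at day 60 (0.000522), each against the age before. The day 28 call ended without day 18 replicate 1 (adjusted p = 0.0742), without day 28 replicate 1 or 4 (0.0572 and 0.0578) and with quantile normalization (0.056). At day 60 Kcnj15 stood 4.56-fold above day 7.

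Kcnj16 read 7.22, 7.09 and 7.56 at day 7, 6.63, 5.86, 6.52 and 6.83 at day 18, 4.48, 4.19, 4.71 and 4.72 at day 28 and 4.05, 3.62 and 4.06 at day 60. All pools of the later pair of ages lay under the background level, and no age overlapped with another. It was 0.83 ± 0.21 lower at day 18 than at day 7 (adjusted p = 0.00488) and 1.93 ± 0.19 lower at day 28 than at day 18 (3.55e-06). Because the later values lie under the background level, the falls are bounds when that level stands in for the dim pools: at least 2.90-fold lower at day 28 than at day 18, and at least 5.17-fold lower at day 60 than at day 7 (means 3.91 and 7.29). The further difference between day 28 and day 60 lies within the background and gives no fold. Kcnj10, the other known partner, was called in none of the comparisons (mean 5.32 at day 60, against 5.48 at day 7).

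The promoter windows of both genes are given because they show the opposite courses. Each runs from 250 bases before to 50 after the annotated start in RefSeq (rat build GRCr8), which need not be the start used in this tissue. The Kcnj15 window is chr11:48070700-48070999, plus strand, and the Kcnj16 window chr10:96517074-96517373, plus strand. Capitals mark matches to the CCAAT box, searched as CCAAT on both strands, so ATTGG is the same box read from the other strand. Each window holds 2 matches and none to the GC box or TATA box, and a match is a description of the letters, not evidence of a site in use.
Kcnj15: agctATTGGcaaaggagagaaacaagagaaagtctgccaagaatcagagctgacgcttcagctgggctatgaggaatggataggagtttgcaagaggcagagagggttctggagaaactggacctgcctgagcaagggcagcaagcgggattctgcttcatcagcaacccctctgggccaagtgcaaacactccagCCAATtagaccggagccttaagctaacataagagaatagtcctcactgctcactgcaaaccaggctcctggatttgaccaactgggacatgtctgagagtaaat
Kcnj16: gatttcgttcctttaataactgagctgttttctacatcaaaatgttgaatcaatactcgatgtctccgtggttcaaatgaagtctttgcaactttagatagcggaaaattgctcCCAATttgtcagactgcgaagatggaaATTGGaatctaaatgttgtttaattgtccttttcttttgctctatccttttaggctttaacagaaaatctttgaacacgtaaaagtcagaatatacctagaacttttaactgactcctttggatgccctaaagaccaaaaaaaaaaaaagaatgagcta

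Kcnj3, a subunit of G protein-gated channels of heart and neurons, read 5.37, 5.28 and 4.82 at day 7, 6.78, 6.61, 6.70 and 6.44 at day 18, 6.69, 6.48, 6.84 and 6.89 at day 28 and 6.96, 6.99 and 7.0 at day 60. It rose once, by 1.48 ± 0.13 at day 18 (adjusted p = 5.08e-07), and all later pools lay above all day 7 pools. Its possible partners moved less: Kcnj5 was 0.28 higher at day 18 and not called, Kcnj9 was called nowhere and Kcnj6 was under background in all 14 arrays. Kcnj12, a strong rectifier of muscle, read 7.02, 6.67, 6.95 and 7.08 at day 18, against 5.96, 6.36 and 5.84 at day 7, a rise of 0.88 ± 0.13 (adjusted p = 6.33e-05) without overlap. Of 3 skeletal muscle markers measured, 2 were higher and 1 was lower at day 18 than at day 7. The log2 of their summed level was 9.03 to 9.82 at day 7 and 10.51 to 10.94 at day 18. It was 11.17 to 11.5 at day 28 and 11.11 to 11.15 at day 60. The part of skeletal muscle in the Kcnj12 rise was not tested. Kcnj1, the secretory potassium channel of the kidney tubule, was under background in all day 7 pools (4.39, 4.82 and 4.47), while the day 60 pools read 5.81, 6.01 and 5.69. It was at least 1.89-fold higher at day 60 than at day 7 (adjusted p = 1.91e-05).

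Kcnj8 and Kcnj11 form the pores of ATP-sensitive channels, with the sulfonylurea receptors Abcc9 and Abcc8 around them. Kcnj8 read 7.11, 7.40, 7.41 and 7.14 at day 18, against 7.67, 7.76 and 7.56 at day 7, a fall of 0.40 ± 0.10 (adjusted p = 0.00428). It was back to 7.61, 7.46, 7.76 and 7.55 at day 28, 0.33 ± 0.09 above day 18 (0.0146), a call that ended without day 18 replicate 1 (0.0504) or day 28 replicate 3 (0.0501). Abcc9 rose at both later steps, by 0.66 ± 0.10 and 0.63 ± 0.11, to 8.65 ± 0.07 at day 60, against 7.21 ± 0.10 at day 7 (SD, n = 3 each). Abcc8 was 1.34 ± 0.12 higher at day 60 than at day 7, while Kcnj11 had a mean of 4.80 over all arrays, under the background level.

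**Figure D3:**
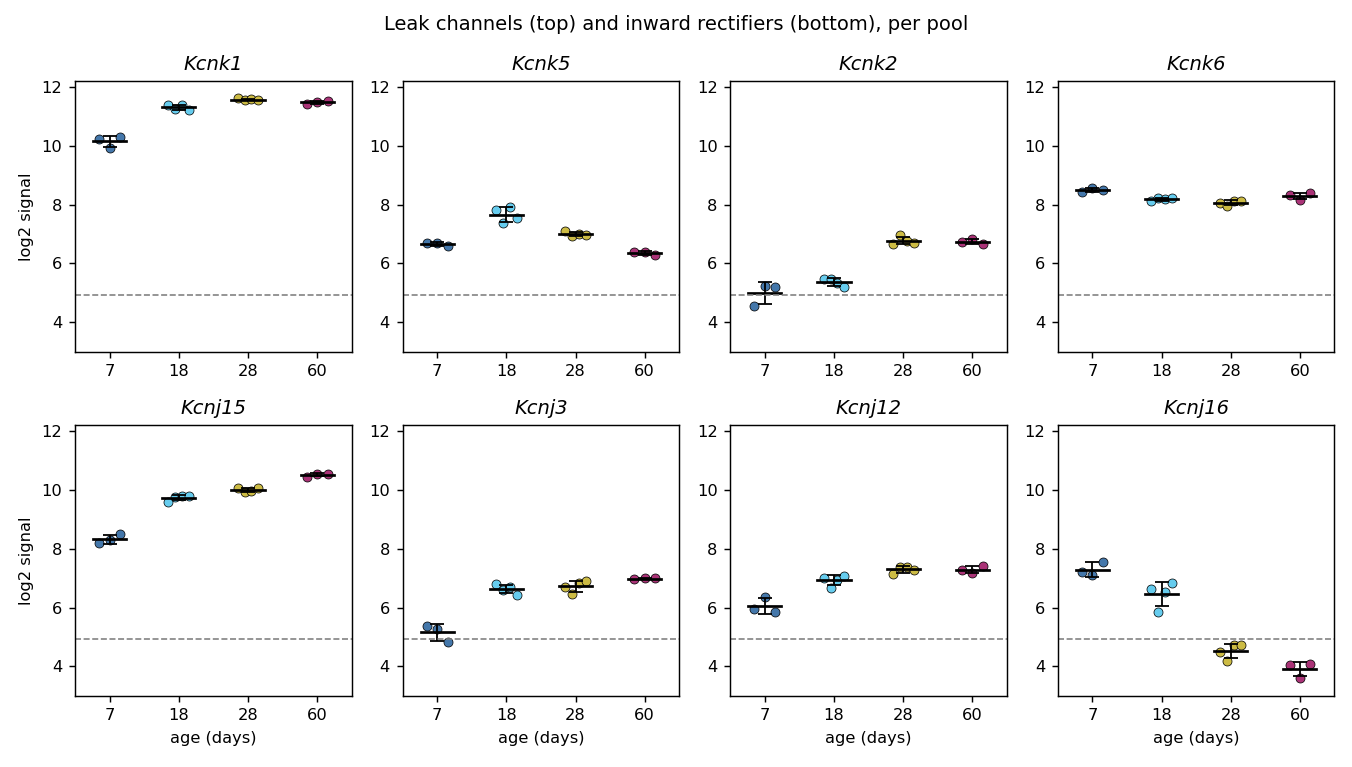
Log2 signal per pool (y axis) against age in days (x axis) for leak channels and inward rectifiers; points are pools, thick bars means, error bars SD, and the dashed line the background level of 4.92. Kcnj15 climbs at each age to 10.45 to 10.55 at day 60, whereas Kcnj16 crosses the background level between day 18 and day 28 and Kcnk5 peaks at day 18.

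Kcnq1 is a voltage-gated pore whose behaviour depends on the Kcne subunit beside it: with Kcne1 it gives the slow current of the heart, and with Kcne3 it conducts at rest and serves chloride secretion in the gut. Kcnq1 read 7.61, 7.29 and 7.43 at day 7, 8.80, 8.57, 8.69 and 8.87 at day 18, 8.14, 7.96, 8.21 and 8.20 at day 28 and 7.72, 7.61 and 7.63 at day 60. Kcne3 read 8.60, 8.48 and 8.54 at day 7, 10.03, 10.02, 10.18 and 10.21 at day 18, 9.96, 9.82, 9.79 and 9.95 at day 28 and 9.38, 9.38 and 9.30 at day 60. Both peaked at day 18, and for both the day 18 pools lay above every pool of the other ages. Kcnq1 rose by 1.29 ± 0.10 at day 18 (adjusted p = 8.78e-08) and then fell by 0.60 ± 0.09 and 0.48 ± 0.10 (0.000181 and 0.00252). By day 60 it was 0.21 ± 0.10 above day 7, which did not pass the test (0.114). Kcne3 rose by 1.57 ± 0.08 (1.1e-09), and at day 60 it was 0.53 ± 0.08 below day 28 and still 0.81 ± 0.08 above day 7 (0.000174 and 8.33e-07). Its fall of 0.23 ± 0.07 at day 28 (0.0293) did not pass without day 18 replicate 3 or 4 (0.0777 and 0.0882) or day 28 replicate 2 or 3 (0.0611 and 0.0865), nor with arrays centred on their medians (0.053) or with these ages fitted alone (0.0742). A rise followed by falls at both later steps was called for 3 Kcn genes, Kcne3, Kcnq1 and Kcnk5, that is 3.45% of them, beside 0.683% of all genes. Some other courses were less common among the Kcn genes. A fall at day 18 with no later call was seen in 3.45%, beside 9.34% of all genes. For a fall at day 28 alone the shares were 1.15% and 3.88%. Whether such shares differ was not tested. Clear and narrow cell markers were higher at day 18 than at day 7 in 6 of 7 cases and lower in 0. At day 28 against day 18, 2 were higher and 3 lower. The log2 of their summed level was 8.79 to 9.0 at day 7, 11.30 to 11.40 at day 18 and 11.36 to 11.44 at day 28. Of 4 basal cell markers measured, 3 were higher and 1 was lower at day 18 than at day 7. The part of these cell types in the day 18 rises was not tested.

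The other Kcne genes did not share that course. Kcne4, which inhibits Kcnq1 in test cells, read 9.18, 9.35 and 9.20 at day 7, 8.70, 8.87, 8.47 and 8.61 at day 18, 8.34, 7.97, 8.32 and 8.32 at day 28 and 7.64, 7.78 and 7.75 at day 60. It fell at every step, by 0.58 ± 0.11, 0.43 ± 0.10 and 0.51 ± 0.11 (adjusted p = 0.000569, 0.0062 and 0.00307), with no overlap between neighbouring ages. Kcne5, the X-linked member of the family, read 8.74, 8.80 and 8.96 at day 7, 7.24, 7.31, 7.26 and 7.41 at day 18, 6.68, 6.77, 6.53 and 6.74 at day 28 and 7.09, 6.98 and 7.27 at day 60. After falls of 1.53 ± 0.09 and 0.63 ± 0.08 it was 0.44 ± 0.09 higher at day 60 than at day 28 (0.00277), and it stayed 1.72 ± 0.10 below day 7. Kcne1 fell late, by 0.58 ± 0.14 at day 60 against day 28 (0.00644), and Kcne2, a partner of Kcnq1 in the acid-secreting stomach, was called at no step.

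The Kcne3 window is given as the promoter of the largest rise at day 18. It is chr1:163935785-163936084, plus strand, from RefSeq (GRCr8), and capitals mark 2 matches to the GC box, searched as GGGCGG on both strands.
Kcne3: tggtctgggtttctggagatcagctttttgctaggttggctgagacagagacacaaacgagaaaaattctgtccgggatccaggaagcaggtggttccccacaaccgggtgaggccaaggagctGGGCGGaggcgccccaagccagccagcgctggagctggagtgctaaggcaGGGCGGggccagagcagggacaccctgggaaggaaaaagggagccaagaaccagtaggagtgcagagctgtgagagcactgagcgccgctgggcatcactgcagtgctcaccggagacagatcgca

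Kcnd subunits form the fast inactivating A-type channels, and Kcnip proteins, calcium sensors bound to their inner end, set how many reach the membrane and how fast they inactivate. Dpp6 is a membrane protein of the same complex. Kcnd3 read 7.90, 8.22 and 7.69 at day 7, 7.0, 7.25, 7.20 and 7.31 at day 18, 8.35, 7.82, 8.15 and 8.11 at day 28 and 7.97, 8.18 and 8.12 at day 60. It dipped at day 18 below every other pool, by 0.74 ± 0.13 against day 7 (adjusted p = 0.000444), and was 0.92 ± 0.12 higher at day 28 than at day 18 (7.74e-05). Dpp6 dipped with it, 0.74 ± 0.14 lower at day 18 and 0.93 ± 0.13 higher at day 28, each against the age before. Kcnd1 and Kcnd2 were not called at day 18 against day 7 (0.12 and 0.14). At day 60 Kcnd1 was 0.85 higher than at day 7, and Kcnd2, under background in all day 7 pools, was at least 1.41-fold higher.

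Kcnip1, Kcnip3 and Kcnip4 fell at day 18 against day 7, while Kcnip2 was 0.29 higher and not called. Kcnip1 read 8.96, 9.18 and 8.97 at day 7, 7.75, 7.98, 7.54 and 7.48 at day 18, 8.25, 7.90, 8.10 and 8.34 at day 28 and 7.90, 7.63 and 7.63 at day 60. It was 1.35 ± 0.13 lower at day 18 than at day 7 and still 1.32 ± 0.14 lower at day 60 (adjusted p = 1.19e-06 and 1.49e-06). Kcnip3, which is also a calcium-regulated repressor of transcription, read 9.72, 9.88 and 9.41 at day 7, 8.33, 8.50, 8.41 and 8.37 at day 18, 9.0, 8.76, 8.92 and 8.87 at day 28 and 9.79, 9.42 and 9.42 at day 60. Its dip of 1.27 ± 0.12 (6.66e-07) was made up by rises of 0.49 ± 0.11 and 0.66 ± 0.12, so that the day 60 and day 7 pools overlapped (0.449).

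Kcnip4 had the largest fall of the 87 genes. It read 8.86, 8.57 and 8.98 at day 7, 5.82, 5.81, 5.59 and 5.84 at day 18, 4.31, 4.53, 5.30 and 5.08 at day 28 and 5.37, 4.83 and 5.09 at day 60. At day 18 it was 3.04 ± 0.20 lower than at day 7, or 8.22-fold (adjusted p = 2.45e-08), and at day 60 it was 13.1-fold lower (1.9e-09), with values on either side of the background level in the older pools. Markers of neurons and Schwann cells, where Kcnip4 is best known, were lower at day 18 in 4 of 9 measured cases and higher in 0. The log2 of their summed level was 8.48 to 8.60 in the day 18 pools, against 9.39 to 9.64 in the day 7 pools, with Tubb3 and Elavl4 under background. At day 60 it was 9.59 to 10.08, while Kcnip4 stayed low. Their part in the fall was not tested. Kcnip2, the heart form, went the other way and was 0.96 ± 0.16 higher at day 60 than at day 7 (0.000115).

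**Figure D4:**
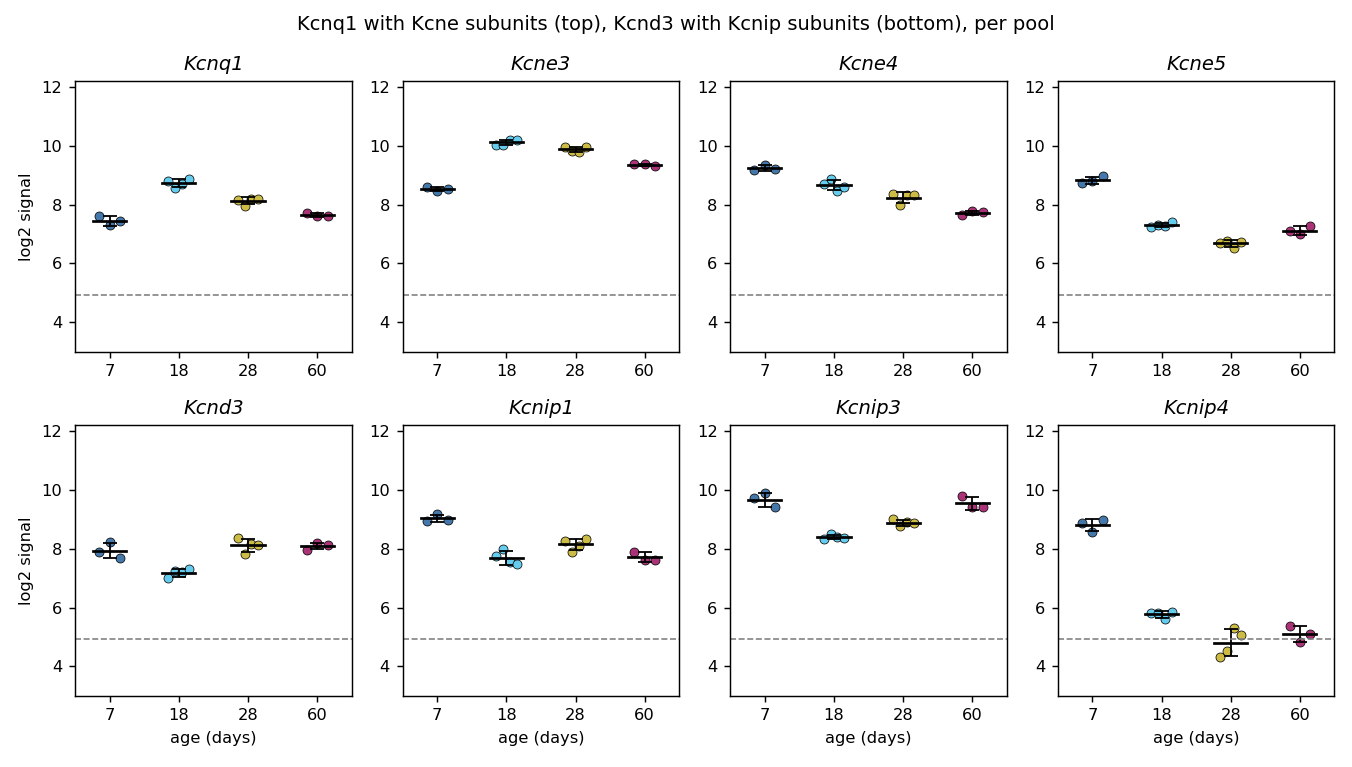
Log2 signal per pool (y axis) against age in days (x axis) for Kcnq1 with Kcne subunits (top) and Kcnd3 with Kcnip subunits (bottom); points are pools, thick bars means, error bars SD, and the dashed line the background level. Kcnq1 and Kcne3 peak at day 18, Kcnd3 and Kcnip3 are lowest there, and the Kcnip4 pools at day 28 and day 60 lie around the background level.

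Kcnma1 forms the large-conductance channel opened by calcium and voltage, Kcnmb1 is its subunit in smooth muscle, and the Lrrc proteins are its other partners, Lrrc26 in secretory epithelia among them. Kcnma1 read 7.04, 7.42 and 7.04 at day 7, 8.10, 8.11, 8.20 and 8.26 at day 18, 7.79, 7.26, 7.55 and 7.67 at day 28 and 7.68, 7.52 and 7.51 at day 60. Kcnmb1 read 9.59, 10.10 and 9.44 at day 7, 8.71, 8.71, 8.92 and 8.44 at day 18, 9.68, 9.58, 9.59 and 9.53 at day 28 and 9.82, 9.72 and 10.02 at day 60. At day 18 the pore gene was above all other pools while the muscle subunit was below all others. Kcnma1 was 1.0 ± 0.12 higher at day 18 than at day 7 (adjusted p = 1.27e-05) and 0.60 ± 0.11 lower at day 28 than at day 18 (0.00131). Kcnmb1 was 1.02 ± 0.14 lower and then 0.90 ± 0.13 higher (4.17e-05 and 0.000145).

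Of the smooth muscle markers 4 of 7 were lower at day 18 than at day 7 and 6 of 7 were higher at day 28 than at day 18. At day 18 against day 7, 3 of 5 pericyte and 3 of 4 endothelial markers were lower, and at day 28 against day 18, 3 of 5 and 3 of 4 were higher. Abcc9, given above as a partner of Kcnj8, is itself among these pericyte markers. It was not called at day 18 and was higher at day 28. The log2 of the summed muscle level was 12.80 to 13.18 at day 7, 12.38 to 12.72 at day 18, 13.03 to 13.32 at day 28 and 13.13 to 13.22 at day 60. A fall at day 18 and a rise at day 28 with no call after was seen in Kcnmb1, Kcnd3, Kcnj8 and Kcng1, 4.60% of the Kcn genes beside 1.13% of all genes. The summed level was 10.48 to 10.71, 9.83 to 9.95, 10.22 to 10.57 and 10.42 to 10.50 at the 4 ages for pericytes and 9.85 to 9.94, 9.02 to 9.13, 9.34 to 9.46 and 9.47 to 9.55 for endothelium, with all markers measured above background. The part of these cell types in the results was not tested. Kcng1's fall at day 18 ended without day 7 replicate 3 (adjusted p = 0.0894).

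Kcnmb1 and Kcnip1 lie next to each other on chromosome 10 of GRCr8 and their annotated spans overlap. Both fell at day 18 and rose at day 28, but Kcnip1 rose less. Its day 28 mean was 8.15, against 9.04 at day 7, while Kcnmb1 had means of 9.59 and 9.71. At day 60 against day 7, Kcnip1 was 1.32 lower and Kcnmb1 0.14 higher, the latter not called. Whether probes in the shared span serve either cluster was not tested. The Kcnmb1 window, chr10:19061849-19062148, plus strand (RefSeq, GRCr8), is shown for its place in that pair, and none of the motifs searched matched in it, so it holds no capitals.
Kcnmb1: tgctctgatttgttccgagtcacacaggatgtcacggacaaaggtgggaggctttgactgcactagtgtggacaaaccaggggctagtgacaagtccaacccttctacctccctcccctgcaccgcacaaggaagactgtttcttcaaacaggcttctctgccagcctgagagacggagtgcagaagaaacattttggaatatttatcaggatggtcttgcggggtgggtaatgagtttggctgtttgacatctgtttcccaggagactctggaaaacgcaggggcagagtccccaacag

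Of the 4 Lrrc partners of the large-conductance channel, Lrrc55 and Lrrc26 fell early and Lrrc38 and Lrrc52 were not called at day 18 against day 7. Lrrc55 was 2.44 ± 0.25 lower at day 18 than at day 7 (adjusted p = 2.41e-06) and Lrrc26 was 0.48 ± 0.14 lower (0.0149). Kcnmb4, the neuronal subunit, had means of 5.67 at day 18, against 5.78 at day 7, and Kcnmb2 and Kcnmb3 were under background in all arrays. Among the small-conductance channels, Kcnn3 was 0.72 ± 0.11 lower at day 60 than at day 7 (5.24e-05). Kcnn4, the form of epithelia and lymphocytes, was called in no comparison, with age means from 5.36 to 5.56. T lymphocyte markers were higher at day 18 than at day 7 in 7 of 7 cases, and their part in the Kcnn4 signal was not tested. The sodium-activated Kcnt1 was 0.52 ± 0.13 higher at day 18 and 0.77 ± 0.14 higher at day 60, both against day 7 (0.00472 and 0.000214). Kcnu1, which in mouse is the sperm potassium channel, and its mouse partner Lrrc52 were both under background, with a Kcnu1 mean of 3.85 at day 60, when 7 of 9 haploid germ cell markers were higher than at day 28.

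Among the remaining voltage-gated genes, Kcnb2 and Kcna2 had the deepest falls over the whole span. Kcnb2, a delayed rectifier, read 7.83, 7.76 and 7.70 at day 7, 6.79, 7.04, 6.76 and 7.23 at day 18, 6.52, 6.26, 6.48 and 6.27 at day 28 and 5.67, 5.62 and 5.74 at day 60. No ages overlapped, and it fell by 0.81 ± 0.11, 0.57 ± 0.10 and 0.71 ± 0.11 in turn (adjusted p = 3.5e-05, 0.00082 and 0.000313), 4.25-fold over the whole span. Kcna2, a low-threshold channel of axons and muscle, read 8.03, 8.18 and 8.15 at day 7, 7.66, 7.46, 7.73 and 8.02 at day 18, 6.45, 6.08, 6.50 and 6.72 at day 28 and 6.18, 6.05 and 5.90 at day 60. Most of its 4.22-fold fall lay between day 18 and day 28 (1.28 ± 0.13, adjusted p = 5.59e-06). A fall at all 3 steps was called for Kcnb2, Kcne4 and Kcnj16, 3.45% of the Kcn genes beside 1.40% of all genes; for Kcnj16 the last of these calls (0.0434) compares ages that are both under background, and it ended without day 28 replicate 1, 3 or 4 (0.0663, 0.0992 and 0.0984), without any one day 60 pool (0.0651, 0.18 and 0.0612), without day 7 replicate 1 (0.0538), without day 18 replicate 3 (0.0529) and with quantile normalization (0.074). Of 5 mesothelial markers 4 fell and 1 rose at day 18, all 5 fell at day 28, and 1 fell and 2 rose at day 60, each against the age before. The log2 of their summed level was 10.92 to 11.35 at day 7, 10.74 to 10.96 at day 18, 9.81 to 9.84 at day 28 and 9.39 to 9.57 at day 60, and their part in these falls was not tested.

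Kcng and Kcns genes code for silent subunits, which give no current alone and modify Kcnb channels. Several rose while Kcnb2 fell. Kcng3 read 5.89, 6.07 and 5.99 at day 7, 6.07, 6.24, 6.47 and 6.46 at day 18, 6.55, 6.58, 6.49 and 6.56 at day 28 and 7.19, 7.23 and 7.10 at day 60. It was 0.63 ± 0.09 higher at day 60 than at day 28 and 1.19 ± 0.10 higher than at day 7 (adjusted p = 0.00025 and 1.29e-07). Kcns3 read 6.12, 6.23, 5.92 and 6.0 at day 18, against 5.19, 5.17 and 5.33 at day 7, a rise of 0.84 ± 0.10 (1.05e-05), and then fell by 0.41 at day 28. At day 60 against day 7, Kcng2 was 0.80 higher and Kcng4, under background in all day 7 pools, at least 1.24-fold higher, and Kcns2 was 0.70 higher at day 28 than at day 18.

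Kcnh genes belong to the ether-a-go-go family. Kcnh4 read 4.95, 4.98 and 5.49 at day 7, 5.82, 5.69, 5.81 and 5.92 at day 18, 5.83, 5.83, 6.07 and 5.80 at day 28 and 6.25, 6.43 and 6.50 at day 60, a difference of 1.26 ± 0.13 between day 60 and day 7 (adjusted p = 1.32e-06). Kcnh1 was above background at the middle ages alone: it read 4.04, 4.15 and 4.63 at day 7, 5.16, 5.53, 5.16 and 5.05 at day 18, 5.60, 5.24, 5.24 and 5.43 at day 28 and 4.46, 4.67 and 4.53 at day 60. It was at least 1.24-fold higher at day 18 than at day 7 (0.000103) and at least 1.37-fold lower at day 60 than at day 28 (0.000903). The cardiac Kcnh2 was called in no comparison.

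Of the Kcnq pores of the neuronal M-current, Kcnq5 was 0.94 ± 0.12 lower at day 18 than at day 7 (adjusted p = 1.77e-05). Kcnq3 was 0.59 ± 0.13 higher at day 18 than at day 7 (adjusted p = 0.00249), when its mean of 4.91 lay at about the background level. It was at least 1.40-fold lower at day 60, when all pools were under background, than at day 28 (0.00149). Kcna5, a channel of vascular and cardiac muscle, read 5.23, 4.18, 5.05 and 5.12 at day 28, against 5.77, 5.81, 5.56 and 5.72 at day 18, a fall of 0.82 ± 0.18 (0.00366) in which day 28 replicate 2 was the lowest pool. Kcna3, the channel of T lymphocytes, was called at no age.

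**Figure D5:**
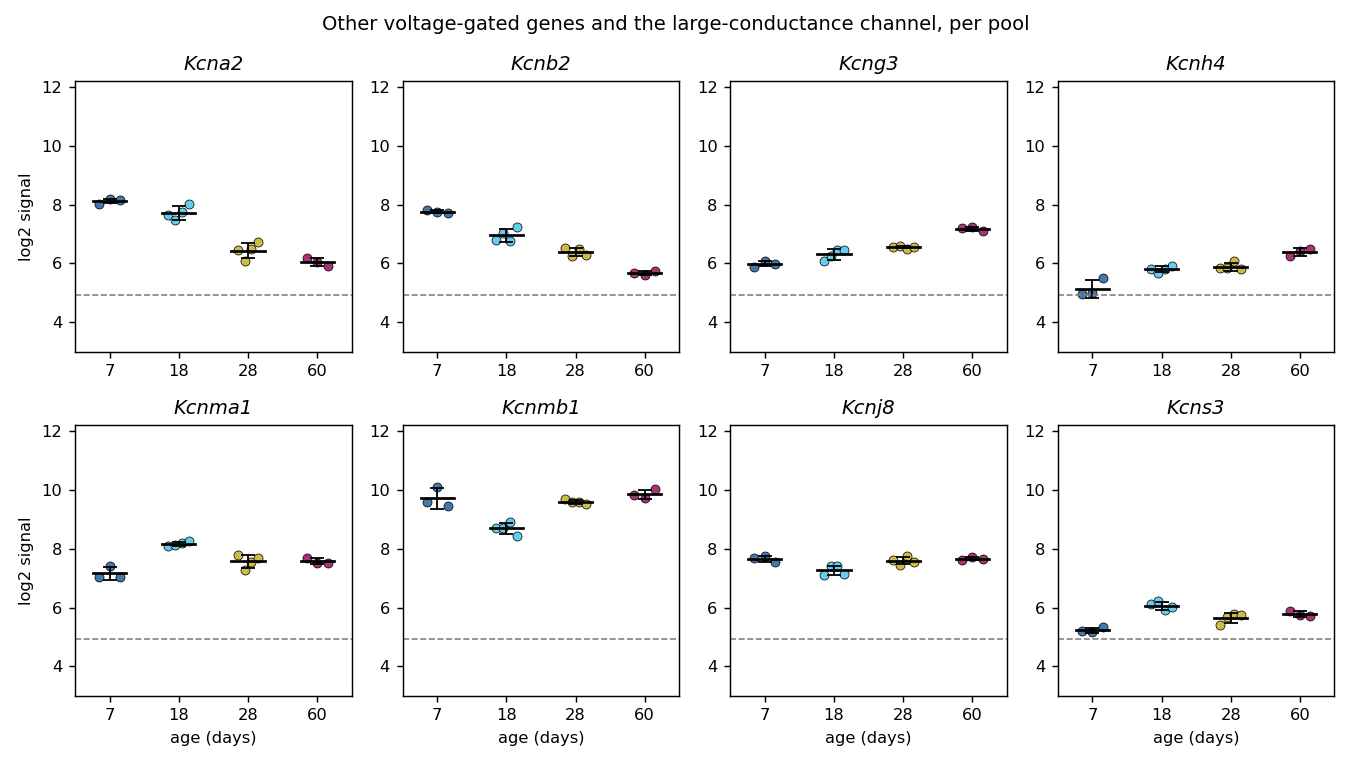
Log2 signal per pool (y axis) against age in days (x axis) for 8 further genes: voltage-gated pores, silent subunits, the large-conductance channel with its muscle subunit, and Kcnj8. Points are pools, thick bars means, error bars SD, and the dashed line the background level; Kcnb2 and Kcna2 descend with age, Kcng3 and Kcnh4 ascend, and Kcnma1 peaks where Kcnmb1 is lowest.

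The 22 Kcn genes whose mean was not above background ranged from Kcna4 (3.32) to Kcnj4 (4.89). They hold 11 voltage-gated genes, among them Kcna4, Kcnc1, Kcnc2, Kcnv1 and Kcnv2, with Kcnj6 and Kcnj13 among the rectifiers. Kcnj4 had an age mean over the level at day 28 (5.10), with pools of 4.99, 5.48, 4.93 and 5.0, and was called in no comparison. Calls among the 22 were 1 higher at day 18 against day 7, 1 higher at day 28 against day 18, 0 at day 60 against day 28, and 1 higher and 1 lower over the whole span. That is 4.55%, 4.55%, 0% and 9.09%, beside 38.1%, 24.7%, 25.0% and 49.2% of all genes. The 22 were set apart by low signal, and the share among other genes under the level was not counted. The Kcnj11 call at day 18 ended under 9 of 20 alternatives and the Kcnu1 call at day 28 under 11 of 20. Values of these 22 genes are bounded by the background, so they do not show that the genes are off.

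Several Kcn genes are neighbours on GRCr8 with no protein-coding gene between them. Kcnj16 and Kcnj2 sit side by side on chromosome 10; at day 60 against day 7 Kcnj16 was at least 5.17-fold lower and Kcnj2 0.58 higher on the log2 scale, the Kcnj2 call ending without day 7 replicate 1 or 3 (adjusted p = 0.0677 and 0.0603) or day 60 replicate 1 or 3 (0.0641 and 0.0528). Kcna3, Kcna2 and Kcna10 lie in a row on chromosome 2, where Kcna2 fell by 2.08 over that span and the others were not called. On chromosome 15, Kcnk16 and Kcnk5 were both higher at day 18 than at day 7, Kcnk16 by at least 1.32-fold, since its day 7 pools lay under background, and Kcnk5 by 1.0 on the log2 scale. The Kcnk16 call (0.0182) ended without day 7 replicate 2 (adjusted p = 0.0907) or day 18 replicate 1 (0.0504). Kcnj5 and Kcnj1 on chromosome 8 were both higher at day 60 than at day 7, by 0.42 on the log2 scale and by at least 1.89-fold; the Kcnj5 call ended without day 7 replicate 2 (0.134) or day 60 replicate 2 or 3 (0.111 and 0.0812), with quantile normalization (0.074) and with these ages fitted alone (0.0564).

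RefSeq promoter windows were at hand for 60 of the 87 genes, 66 windows in all. Their median GC content was 60.5%, beside 51.7% over all 33469 windows. The GC box GGGCGG matched on either strand in 33 of the 66 Kcn windows (50%), beside 33.1% of all, and the TATA box TATAAA in 3.03%, beside 14.2%. CCAAT matched in 28.8% (37.5% of all), the androgen receptor half-site AGAACA in 18.2% (20.7%), and the forkhead motif TGTTTAC and the CArG box, which is named here without its letters, in 0 (3.78% and 1.64%). None of the motifs spelled out here contains another, but the pattern searched for the CArG box can hold CCAAT or TATAAA.

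Other genes of potassium transport were counted in the same way, and the counts are to be read beside the 38.1%, 24.7% and 25.0% of all genes called at the 3 steps. Of 15 measured partner subunits outside the Kcn names, 2 rose and 5 fell at day 18 against day 7, 4 rose and 1 fell at day 28 against day 18, and 2 rose and 3 fell at day 60 against day 28. Tmem38b, a potassium channel of the endoplasmic reticulum, rose at every step and was 2.03 ± 0.07 higher at day 60 than at day 7 (adjusted p = 8.23e-12). Of 14 measured pump genes, 4 rose and 4 fell at day 18, 2 rose and 2 fell at day 28, and 3 rose and 1 fell at day 60, each against the age before. Atp1b1, the beta subunit of the sodium pump, averaged 10.79 ± 0.03 at day 18 (SD, n = 4), against 10.01 ± 0.12 at day 7 (SD, n = 3). The pump regulators Fxyd1 and Fxyd6 fell by 1.45 ± 0.09 and 1.25 ± 0.09 at that step, and Fxyd6 was 5.28-fold lower at day 60 than at day 7.

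Of 12 measured cation-chloride cotransporters and their kinases, 4 rose and 4 fell at day 18 against day 7, 2 rose at day 28 and 2 rose at day 60, with no falls at these later steps. Stk39, a kinase that activates sodium-potassium-chloride uptake, rose by 1.33 ± 0.08 at day 18 (adjusted p = 1.22e-08), while Slc12a2, the basolateral carrier it acts on, fell by 0.62 ± 0.10 (0.000147). Slc12a3, the sodium-chloride carrier of the distal kidney tubule, rose by 1.14 ± 0.15 at day 28 (5.99e-05) and was 3.55-fold higher at day 60 than at day 7. Sgk1, a hormone-induced kinase that raises potassium and sodium transport, was 0.69 higher at day 60 than at day 7.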

How the data were processed

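Total RNA of frozen epididymides was DNase-treated, amplified and biotin-labelled, per the labels' protocols. The authors deposited log2 signals; the submitters' processing notes name RMA and the Transcriptome Analysis Console, and their settings, the annotation version and the genome build are not given in the sources used here. Of 36685 clusters 18511 had 1 symbol in the platform annotation, giving 18166 genes (brightest cluster per gene); all 87 members matched RefSeq by gene identifier. All genes were fitted with limma 3.58.1 in R 4.3.3 (1 mean per age, eBayes, two-sided), with Benjamini-Hochberg adjustment over all genes, threshold 0.05; the script was tested on simulated data. A bound sets pools below background at the background level. Arrays limit precision by their number. The members and lists were chosen with earlier results of these data known. Values were given by rule: the 10 highest means, the 6 largest rises and falls of at least 2-fold per comparison, the highest of each family and the genes beside the background level; other members were named after their values were seen. Alternatives covered normalization, scaling, filter, variance model, samples fitted, replicate block, clusters per gene and each pool left out.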

Additional observations from a re-analysis of the deposited data

Results flagged for a closer look

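Dixon's test for 1 pool standing apart was run in each group of 4 pools for the 23 named members, 46 groups in all, and marked 5; chance marks about 1 group in 20. Kcne4 read 7.97 in day 28 replicate 2, below the other 3 pools of that age at 8.32 to 8.34. Kcnj4 read 5.48 in the same pool, above the others at 4.93 to 5.0. Kcnh4 read 6.07 in day 28 replicate 3, above the others at 5.80 to 5.83. Kcnip4 read 5.59 in day 18 replicate 3, below the others at 5.81 to 5.84. Kcnk6 read 8.10 in day 18 replicate 1, below the others at 8.20 to 8.21.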

How the results depend on the processing

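Of the 130 called differences of Kcn genes over the 4 comparisons, 93 were called under every alternative that tested them and 0 reversed; the 26 largest rises and falls given by rule were called under all of them. The number of genes above background was 65 and fell to 30 with the 99th percentile of the receptor genes as the level; the other levels and measures gave 59 to 73. Leaving out each pool in turn gave 62 to 65 genes above background, 17 to 22 higher and 13 to 17 lower at day 18 against day 7, 13 to 19 and 11 to 12 at day 28 against day 18, 7 to 9 and 10 to 14 at day 60 against day 28, 22 to 28 and 11 to 15 at day 60 against day 7, and 48 to 58 in the joint test. With the replicate number as a block the counts were 21 and 16, 16 and 12, 8 and 12, 26 and 13, and 53 in the joint test. The numbers share only a number: in 0 of 19 same-numbered pairs was the correlation of deviations over 0.1 (-0.143 to 0.0456). Array medians and quantiles moved the median of all genes by under 0.1. Genes near the background are limited by signal over background, and 3 or 4 pools per age limit all tests.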
